A study of Mus musculus with 35 samples.

Results

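The genes described here mark the alveolar type 1 cell of the lung, and they were taken as a list of 10: Ager, Hopx, Aqp5, Pdpn, Cav1, Rtkn2, Clic5, Akap5, Emp2 and Igfbp2. On the array, 9 of these 10 genes had a probe set annotated with that symbol alone, out of 17097 genes so measured. They were covered by 18 of 28898 such probe sets, and Rtkn2 was not analysed here. Each gene was read from its brightest probe set, and its other probe sets are described beside it. The rule for the list used no measured value, but the list was drawn up with earlier results of these data known.

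The samples were whole lungs of adult male CD-1 mice, which are outbred, after the animals had inhaled styrene at 1, 5, 10, 20, 40 or 120 ppm or had breathed air alone. Each of the 7 groups held 5 mice with 1 Affymetrix array each, and the mice were killed on the morning after exposure. How long they inhaled it is unclear, because the protocol and the sample titles state a single day (6 h on 1 day) while 5 days are stated in the title of the series and in the characteristics of each sample. The design addresses how the lung transcriptome varies with the concentration of styrene, a solvent vapour that club cells of the mouse airway oxidise to a reactive epoxide.

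Alveolar type 1 cells are thin, flat cells that cover nearly all of the gas exchange surface. They share a basement membrane with the capillary endothelium, hold many caveolae and carry channels for water and ions. They can arise from alveolar type 2 cells, the makers of surfactant, through a transitional state marked by keratin 8. Several of their markers are also made by other cells of the lung: caveolin 1 by endothelium, podoplanin by lymphatic endothelium and mesothelium, and aquaporin 5 by airway and gland epithelium. In whole tissue, fewer cells of a type and less RNA per cell cannot be told apart, and this holds for every value below.

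In the lungs that breathed air, the mean of Akap5, the lowest in rank of the 9 genes, lay at percentile 76.5 of all gene means, and that of Ager at percentile 99.98. In the lungs from 5 ppm up, these markers moved in both directions. Clic5, Akap5, Cav1, Pdpn and Hopx rose, and Aqp5 and Igfbp2 fell. By their brightest probe sets, Ager and Emp2 lay within 0.27 of air on the log2 scale. The second probe set of Ager and the dimmest of Emp2 changed more than this at some concentrations, as given below. With an array-wide covariate Akap5 turned negative and some calls against air were lost for each gene but Cav1 and Clic5. At 1 ppm none of them differed detectably from air. A trend across the 4 groups from 10 to 120 ppm was called for 0 members, as for 0.00% of all genes. Called as different at 5 ppm from 10 to 40 ppm were 3 of 9 members, where 42.3% of all genes were called in either direction. By their means, these 3 members lay farther from air at 5 ppm.

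**Figure D1:**
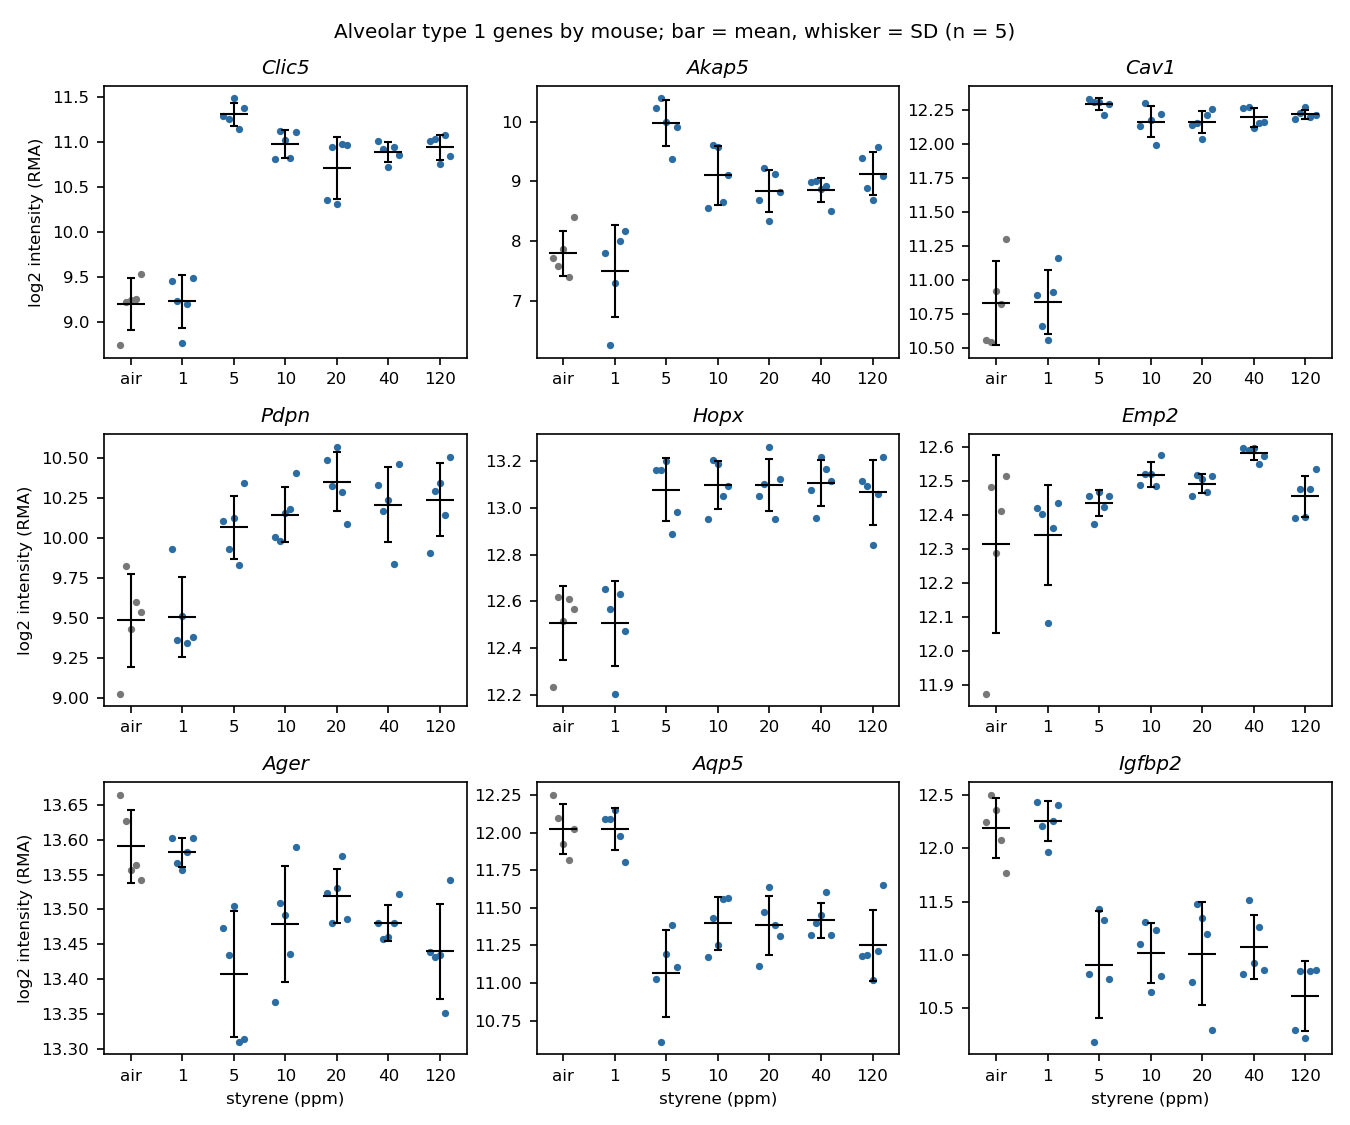
Log2 RMA intensity (vertical axes, a separate scale for each gene) of the 9 genes in each of 35 mice, by styrene concentration in ppm (horizontal axes). Points are mice, bars are means and whiskers are SDs of 5 mice. For Clic5, Cav1, Hopx, Pdpn, Aqp5 and Igfbp2 all mice from 5 to 120 ppm lie outside the range of the mice in air. The share of all genes that do so was not counted.

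The genome sequence at the start is shown for 4 members, Clic5 and Cav1, which rose, and Aqp5 and Igfbp2, which fell. These had the smallest adjusted p of the members at 120 ppm. Akap5, with the largest estimated rise of the members at 5 ppm, is not shown. Each window runs from 250 bases before to 50 bases after the annotated start on the strand of the gene, is credited to RefSeq (mouse build GRCm38.p6), and has every CG pair in capitals. The windows lie at chr17:44188322-44188621 for Clic5, chr6:17306085-17306384 for Cav1, chr15:99590778-99591077 for Aqp5 and chr1:72824230-72824529 for Igfbp2, all on the plus strand. The Clic5 window is that of a start inside the annotated gene, downstream of its first base, and the other 3 are at the first base of their genes.
Clic5: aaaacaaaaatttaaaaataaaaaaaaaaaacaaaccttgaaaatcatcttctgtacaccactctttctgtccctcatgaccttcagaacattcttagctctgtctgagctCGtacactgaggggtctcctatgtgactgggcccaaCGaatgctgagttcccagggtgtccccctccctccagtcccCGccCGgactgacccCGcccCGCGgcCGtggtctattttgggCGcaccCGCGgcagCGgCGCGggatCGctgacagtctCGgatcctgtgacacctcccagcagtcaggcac
Cav1: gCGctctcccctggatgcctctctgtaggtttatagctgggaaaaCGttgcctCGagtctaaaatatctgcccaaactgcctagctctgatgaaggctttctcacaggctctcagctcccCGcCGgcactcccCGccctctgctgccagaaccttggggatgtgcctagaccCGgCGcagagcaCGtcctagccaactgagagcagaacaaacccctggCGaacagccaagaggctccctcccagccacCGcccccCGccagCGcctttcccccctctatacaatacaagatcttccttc
Aqp5: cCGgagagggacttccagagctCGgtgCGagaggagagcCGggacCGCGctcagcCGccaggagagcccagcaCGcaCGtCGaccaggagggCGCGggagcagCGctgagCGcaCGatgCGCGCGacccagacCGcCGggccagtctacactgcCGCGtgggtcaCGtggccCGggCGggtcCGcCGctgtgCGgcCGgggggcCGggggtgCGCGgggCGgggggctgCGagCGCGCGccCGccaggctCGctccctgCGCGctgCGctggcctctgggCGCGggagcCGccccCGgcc
Igfbp2: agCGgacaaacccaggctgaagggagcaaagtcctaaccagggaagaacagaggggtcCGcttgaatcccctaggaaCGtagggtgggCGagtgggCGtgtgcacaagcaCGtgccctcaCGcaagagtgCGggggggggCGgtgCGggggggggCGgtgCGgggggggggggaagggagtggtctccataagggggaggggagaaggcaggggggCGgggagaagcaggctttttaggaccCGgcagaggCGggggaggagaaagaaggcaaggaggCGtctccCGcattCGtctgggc
The Aqp5 window held 46 CG pairs and 79.7% G and C, at percentile 99.0 of all windows by base composition. The Igfbp2 window held 18 CG pairs and 67.0% G and C, the Cav1 window 13 and 59.3%, and the Clic5 window 16 and 54.3%, against a median of 52.7% over all 32851 windows. The 9 genes had 12 such windows between them. The letters CATTCC, the core bound by TEAD factors, were searched on both strands and stood in 0 of the 12 windows, against 14.7% of all windows. The letters CAAGTG, a core bound by NKX2-1, stood in 1 of the 12, the second window of Hopx, against 13.6% of all windows. These are letter matches and not binding sites, and a window without them says only that the letters are not in those bases.

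Of the genes for surface proteins, Ager encodes the receptor for advanced glycation end products, a pattern receptor that lies on the basal side of alveolar type 1 cells. Its log2 intensities were 13.44, 13.43, 13.43, 13.35 and 13.54 in the 5 mice at 120 ppm, against 13.66, 13.63, 13.56, 13.56 and 13.54 in the 5 mice in air. At 5 ppm the values were 13.47, 13.43, 13.51, 13.31 and 13.31. The 5 ppm mice all lay below the air mice, and at 120 ppm the highest mouse met the lowest air mouse. Ager fell at 5 ppm by 0.18 (log2 change, SE 0.0572, limma adjusted p = 0.0047) and at 120 ppm by 0.15 (adjusted p = 0.0201). At 10, 20 and 40 ppm its log2 changes were -0.11, -0.07 and -0.11, with adjusted p from 0.0827 to 0.277. The call at 120 ppm was lost without mouse 4 of that group (adjusted p = 0.0618, the highest of 10 fits that each left out 1 mouse), and both calls were lost when only the groups compared were fitted. The changes of Ager were close to the median log2 change of all genes, which was -0.23 at 5 ppm and -0.15 at 120 ppm. Its second probe set changed more, by -0.29 at 5 ppm and -0.32 at 120 ppm, and was called at all 5 concentrations from 5 ppm up.

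Podoplanin, encoded by Pdpn, is a mucin-like glycoprotein of the apical membrane of alveolar type 1 cells. The log2 values were 9.91, 10.29, 10.35, 10.14 and 10.51 at 120 ppm, against 9.03, 9.82, 9.43, 9.60 and 9.54 in air. At 20 ppm, where its mean was highest, they were 10.48, 10.33, 10.57, 10.29 and 10.09. Every mouse at these concentrations exceeded every mouse in air, and the same held at 5, 10 and 40 ppm. Pdpn rose 1.69-fold at 120 ppm (log2 change 0.75, SE 0.14, adjusted p = 1.72e-05) and 1.83-fold at 20 ppm (adjusted p = 2.34e-06). At 5, 10 and 40 ppm the rises were 0.58, 0.66 and 0.72 on the log2 scale. Among the 5 air mice, mouse 1 was the lowest for Pdpn, and it was also the lowest for Hopx, Clic5 and Emp2.

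Of the genes for water and ion proteins, Aqp5 encodes the water channel of the apical membrane. Across mice the log2 values were 11.03, 10.61, 11.19, 11.38 and 11.10 at 5 ppm and 11.18, 11.19, 11.02, 11.21 and 11.65 at 120 ppm, against 12.25, 12.10, 11.92, 11.82 and 12.03 in air. Both exposed groups lay wholly below the air mice. Aqp5 averaged 11.06 ± 0.29 at 5 ppm and 12.02 ± 0.17 in air (SD, n = 5 each), a 1.94-fold lower level (log2 change -0.96, SE 0.124, adjusted p = 2.30e-08). At 120 ppm it was 1.71-fold lower (log2 change -0.77, adjusted p = 1.65e-06), and at 10, 20 and 40 ppm its log2 changes were -0.62, -0.64 and -0.60. The fall at 5 ppm exceeded that at 10 to 40 ppm by 0.34 on the log2 scale (change -0.34, SE 0.101, adjusted p = 0.00742), and this call was lost without mouse 2 at 5 ppm (change -0.22, adjusted p = 0.0797, the highest of 20 such fits).

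Clic5 encodes a chloride intracellular channel family protein that links the cell membrane to cortical actin. Its log2 values at 5 ppm were 11.29, 11.26, 11.49, 11.15 and 11.38. At 120 ppm they were 11.01, 11.03, 10.75, 11.08 and 10.84, against 8.74, 9.22, 9.25, 9.26 and 9.53 in air. The lowest mouse at either concentration lay above the highest air mouse by more than the whole range of the air group. Clic5 rose 4.32-fold at 5 ppm (log2 change 2.11, SE 0.14, adjusted p = 9.38e-15) and 3.35-fold at 120 ppm (log2 change 1.74, adjusted p = 1.61e-12). The log2 changes at 10, 20 and 40 ppm were 1.78, 1.51 and 1.69. The 5 ppm group exceeded the 10 to 40 ppm groups by 0.45 on the log2 scale (SE 0.114, adjusted p = 0.00181), with every 5 ppm mouse above all 15 of those mice. The other 3 probe sets of Clic5 rose at 5 ppm by 1.93, 1.53 and 0.84 on the log2 scale, and the dimmest of them was not called at 20 ppm (0.32, adjusted p = 0.132).

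Of the genes for caveolae and membrane proteins, Cav1 encodes caveolin 1, the coat protein that shapes caveolae in alveolar type 1 cells and endothelium. Its log2 values were 12.33, 12.30, 12.31, 12.21 and 12.30 at 5 ppm and 12.19, 12.22, 12.27, 12.20 and 12.21 at 120 ppm. In air they were 10.56, 10.55, 10.92, 10.83 and 11.30. The exposed mice formed a narrow band well above the air mice, and the air mice themselves were spread widely. Cav1 averaged 12.22 ± 0.03 at 120 ppm and 10.83 ± 0.31 in air (SD, n = 5 each). The change at 120 ppm was a 2.62-fold rise (log2 change 1.39, SE 0.104, adjusted p = 4.00e-13), and over the other 4 concentrations from 5 ppm up the log2 changes lay between 1.33 and 1.46. It had 1 probe set.

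Emp2 encodes epithelial membrane protein 2, a small protein with several membrane spans. Its values on the log2 scale were 12.60, 12.59, 12.60, 12.55 and 12.57 at 40 ppm, against 11.87, 12.48, 12.29, 12.41 and 12.52 in air. All 5 mice at 40 ppm lay above the air mice, and at the other concentrations the groups overlapped. Emp2 rose at 40 ppm by 0.27 (log2 change, SE 0.0826, adjusted p = 0.00556) and at 10 ppm by 0.20 (adjusted p = 0.0308), and both calls were lost when only the groups compared were fitted. Leaving out air mouse 1 brought the change to 0.16 at 40 ppm and 0.093 at 10 ppm and ended the call at 10 ppm (adjusted p = 0.207, the highest of 10 fits that each left out 1 mouse), as did leaving out air mouse 3 or mouse 5 at 10 ppm. At 5, 20 and 120 ppm its log2 changes were 0.12, 0.18 and 0.14, with adjusted p of 0.18, 0.0601 and 0.13. The air mice were spread more widely than the mice at 40 ppm, with SDs of 0.02 at 40 ppm and 0.26 in air. The other 2 probe sets of Emp2 did not behave alike. The dimmest rose at 10, 20, 40 and 120 ppm, by 0.40, 0.31, 0.43 and 0.29 on the log2 scale, with adjusted p of 0.0359 at 20 ppm and 0.045 at 120 ppm. The middle one changed by -0.038 at 5 ppm and rose at 40 ppm alone, by 0.23.

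Of the genes for proteins inside the cell, Akap5 encodes an anchoring protein that holds protein kinase A at the membrane. Its log2 values were 10.22, 10.39, 9.99, 9.38 and 9.91 at 5 ppm and 9.40, 8.90, 8.69, 9.57 and 9.09 at 120 ppm, against 7.72, 7.58, 7.87, 7.40 and 8.40 in air. At 20 ppm they were 8.69, 9.22, 8.34, 9.12 and 8.83. The 5 ppm mice stood far above the air mice, the 120 ppm mice also cleared them, and at 20 ppm mouse 3 lay just below the highest air mouse. Akap5 rose 4.55-fold at 5 ppm (log2 change 2.18, SE 0.269, adjusted p = 8.50e-09) and 2.52-fold at 120 ppm (log2 change 1.33, adjusted p = 5.48e-05). The log2 changes at 10, 20 and 40 ppm were 1.31, 1.04 and 1.06. The excess of 5 ppm over 10 to 40 ppm was 1.05 on the log2 scale (SE 0.219, adjusted p = 0.00025). The other 2 probe sets rose at 5 ppm by 2.65 and 2.31 on the log2 scale. With the main axis of array-wide spread as a covariate, the change of Akap5 turned to -0.53 at 5 ppm and was negative at every other concentration from 10 ppm up, and with the interquartile range it was negative from 10 ppm up. The mice with the lowest Akap5 at 10 ppm (mice 1 and 4) and at 20 ppm (mice 1 and 3) were also those with the lowest Clic5 in the same groups.

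Hopx encodes an atypical homeodomain protein that does not bind DNA itself. In single mice its log2 values were 13.12, 13.10, 12.84, 13.06 and 13.22 at 120 ppm, against 12.23, 12.62, 12.52, 12.61 and 12.57 in air. The groups did not overlap here or at 5, 10, 20 and 40 ppm. Hopx rose by 0.56 on the log2 scale at 120 ppm (SE 0.0917, 1.47-fold, adjusted p = 2.51e-06), and the changes at the other 4 concentrations from 5 ppm up lay within 0.57 and 0.60. By its brightest probe set it was the flattest of the called members over concentration: 5 ppm differed from 10 to 40 ppm by -0.022 (adjusted p = 0.834, 95% interval -0.174 to 0.13). Its second probe set was less flat and rose more at 5 ppm (0.55) than at 120 ppm (0.35), with means of 12.12 and 11.92.

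Igfbp2, a secreted binding protein for insulin-like growth factors, marks the mature alveolar type 1 cell of the mouse. Its log2 values were 10.30, 10.85, 10.22, 10.85 and 10.86 at 120 ppm, against 12.25, 12.50, 12.36, 12.07 and 11.77 in air. At 5 ppm they were 10.82, 10.19, 11.43, 11.33 and 10.78. All mice from 5 ppm up lay below all air mice, and they varied more among themselves than they did for Cav1 or Clic5. Igfbp2 was 2.98-fold lower at 120 ppm (log2 change -1.58, SE 0.213, adjusted p = 7.58e-08) and 2.43-fold lower at 5 ppm (log2 change -1.28, adjusted p = 2.31e-06). At 10, 20 and 40 ppm its log2 changes were -1.17, -1.18 and -1.12. It was the member whose estimate at 120 ppm lay farthest beyond 10 to 40 ppm relative to its error, by -0.42 (SE 0.174), with 5 of 5 mice below their mean, and this difference did not pass the adjustment over all genes (adjusted p = 0.378).

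**Figure D2:**
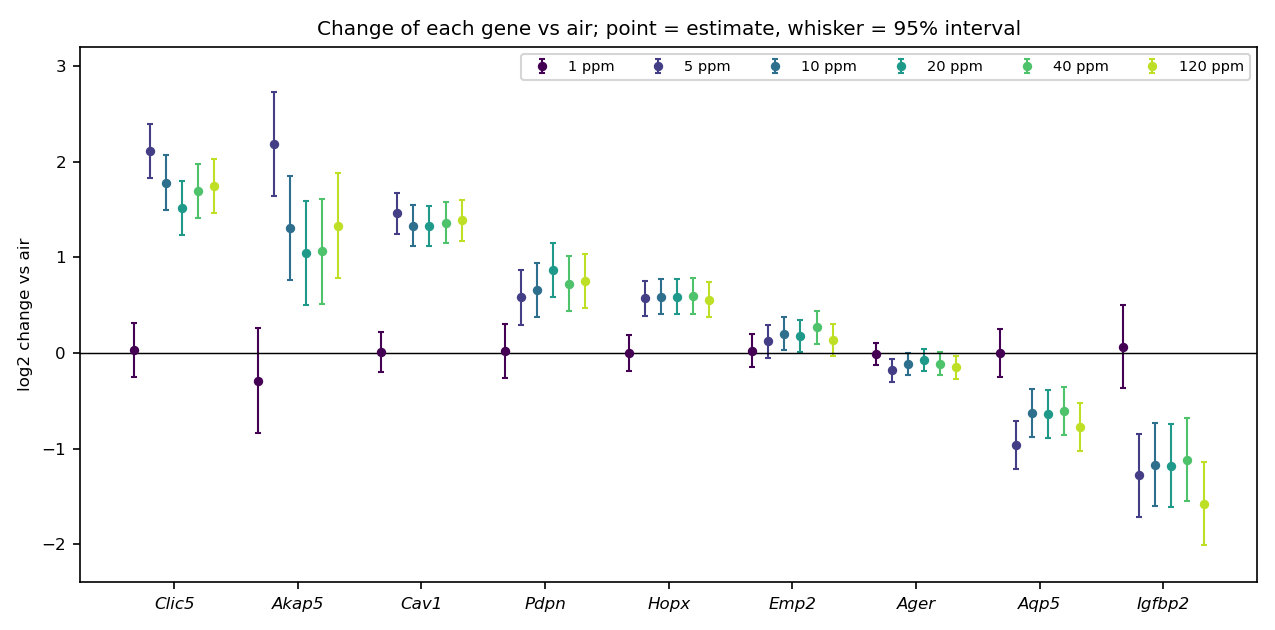
Log2 change against air (vertical axis) of the 9 genes at each styrene concentration, with colours for 1 to 120 ppm; points are limma estimates and whiskers are 95% intervals. The 1 ppm points lie between -0.29 and 0.07, and from 5 ppm up each gene keeps one direction.

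Counted over the list, 5 members rose and 3 fell at 5 ppm, where 77.0% of all genes were called in either direction (29.6% higher, 47.4% lower). At 10 ppm 6 rose and 2 fell (66.4% of all genes called, 29.0% higher and 37.4% lower), at 20 ppm 5 rose and 2 fell (63.6%, 29.4% higher and 34.2% lower), at 40 ppm 6 rose and 2 fell (64.8%, 28.6% higher and 36.2% lower), and at 120 ppm 5 rose and 3 fell (68.9%, 29.8% higher and 39.1% lower). A called member was therefore common in these comparisons, as was a called gene of any kind. The median log2 change of the 9 members was 0.57 at 5 ppm and 0.56 at 120 ppm, beside -0.23 and -0.15 for all genes. All 25 mice from 5 to 120 ppm lay on one side of the air mean for each of the 9 members. The share of all genes that did so was not counted, so this is not read as a trait of the list. The comparisons share the same 5 air mice, so the repeat of a direction over concentrations does not stand for separate evidence.

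At 1 ppm 0 of 9 members were called, and 0 passed an unadjusted p of 0.05, which 2664 of all 17097 genes passed. The changes of the members lay between -0.29 and 0.07 on the log2 scale, and their lowest adjusted p was 0.683. With a trended and robust prior, limma also called 0 members, and 371 of all genes. In the main fit the called share among all 17097 genes was 2.46% (0.965% higher, 1.49% lower). The higher calls made up 39.3% of these, and 60.1% after quantile normalization and 52.7% after centring on array medians.

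Between exposed groups, 3 of 9 members differed between 5 ppm and 10 to 40 ppm (Akap5 and Clic5 higher, Aqp5 lower), where 42.3% of all genes were called (13.5% higher, 28.8% lower). With the array axis as a covariate 0 members were called (share of all genes not given), and Clic5 and Akap5 turned to -0.15 and -0.088. Without it, the other 6 members differed by between -0.17 for Pdpn and 0.12 for Cav1. Between 120 ppm and 10 to 40 ppm 0 of 9 were called, where 0.0936% of all genes were called (0.0117% higher, 0.0819% lower). A single member, Igfbp2, passed an unadjusted p of 0.05, as did 1836 of all 17097 genes. The trended and robust prior called 0 members and 29 of all genes. For a trend over log2(ppm + 1) from air to 120 ppm, 6 members rose and 3 fell (72.6% of all genes called, 30.9% higher and 41.8% lower). From 10 to 120 ppm the trend was called for 0 members and for 0.00% of all genes, of which 1369 passed an unadjusted p of 0.05. The moderated F test over the 7 group means called 9 of 9 members and 82.4% of all genes.

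**Figure D3:**
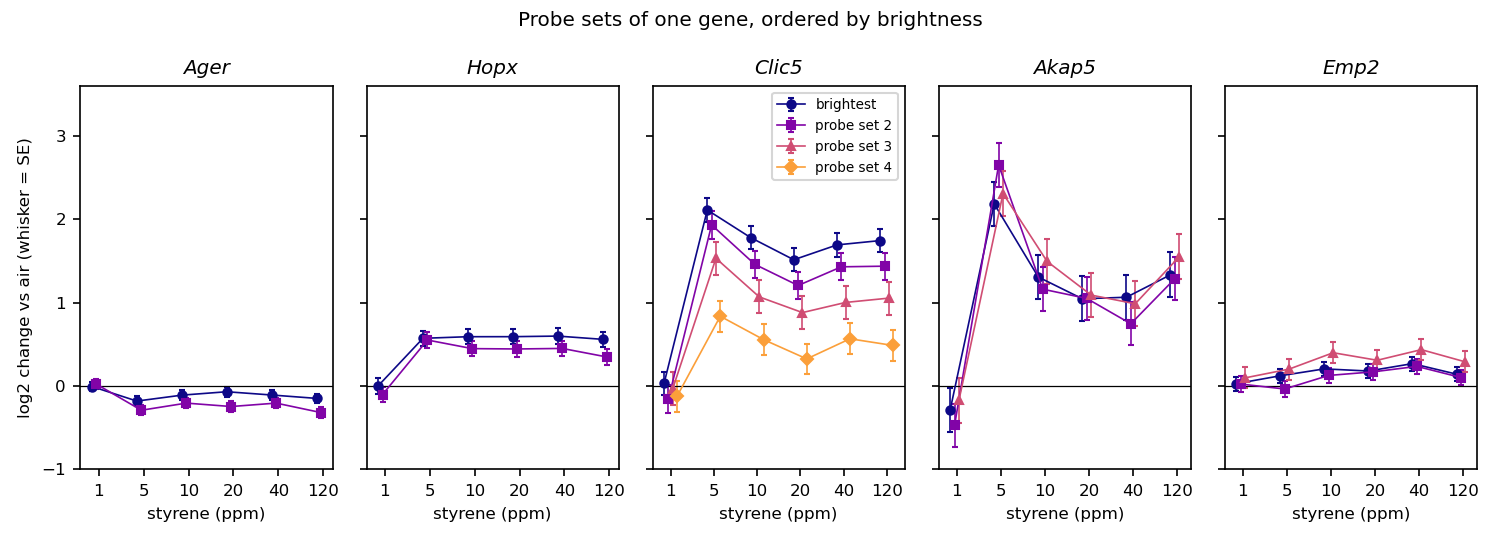
Log2 change against air (vertical axis) by styrene concentration for every probe set of the 5 members with more than 1, ordered by brightness; whiskers are standard errors. The 4 probe sets of Clic5 rose by between 0.84 and 2.11 at 5 ppm, and those of Akap5 by between 2.18 and 2.65.

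The arrays of the air and 1 ppm groups also stood apart from the rest in ways that are not specific to these genes. The interquartile range of the log2 values was 3.28 to 3.54 on arrays from 5 to 120 ppm, and 2.66 to 3.16 on arrays of the air and 1 ppm groups. A single axis held 17.4% of the spread within groups, the largest share of any, and scores on it were -1.51 to 0.611 from 5 to 120 ppm and 0.660 to 1.73 in air. The mice with low Akap5 and Clic5 at 20 ppm (mice 1 and 3) had the highest scores of the mice from 5 ppm up, 0.245 and 0.611. With this axis as a covariate, values are extrapolated because the groups share no range of it. Cav1 and Clic5 were then still called at all 5 concentrations, with log2 changes of 0.66 to 0.91 and 0.68 to 0.88. Akap5 turned to -0.53 at 5 ppm and -0.56 at 120 ppm and was negative at the other 3 concentrations too. The calls of Hopx and Ager at 5 and 120 ppm, of Aqp5 at 5, 10, 40 and 120 ppm, of Pdpn and Igfbp2 at 5 ppm and of Emp2 at 10 and 40 ppm were lost. With the interquartile range as the covariate, Cav1 and Clic5 again stayed called at all 5 concentrations, and Akap5 turned negative at 10 to 120 ppm. The part of the array-wide difference in these results was not tested. No label gives an array or scan batch, so a batch that followed the groups cannot be told apart from exposure.

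Of 40 other genes known from alveolar type 1 cells, 34 were measured. At 5 ppm 19 rose and 13 fell, where 77.0% of all genes were called, and at 120 ppm 20 rose and 12 fell, where 29.8% of all genes were higher and 39.1% lower. The list's median log2 change at 120 ppm was 0.46, beside -0.15 for all genes. At 120 ppm the rises included Ahnak (1.51 ± 0.12, log2 change ± SE), which encodes a large scaffold protein under the membrane, the tetraspanin Tspan8 (1.32 ± 0.117) and Mal2 (1.82 ± 0.176), a protein of apical sorting. Krt19, an epithelial keratin, fell by 0.94 on the log2 scale.

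**Figure D4:**
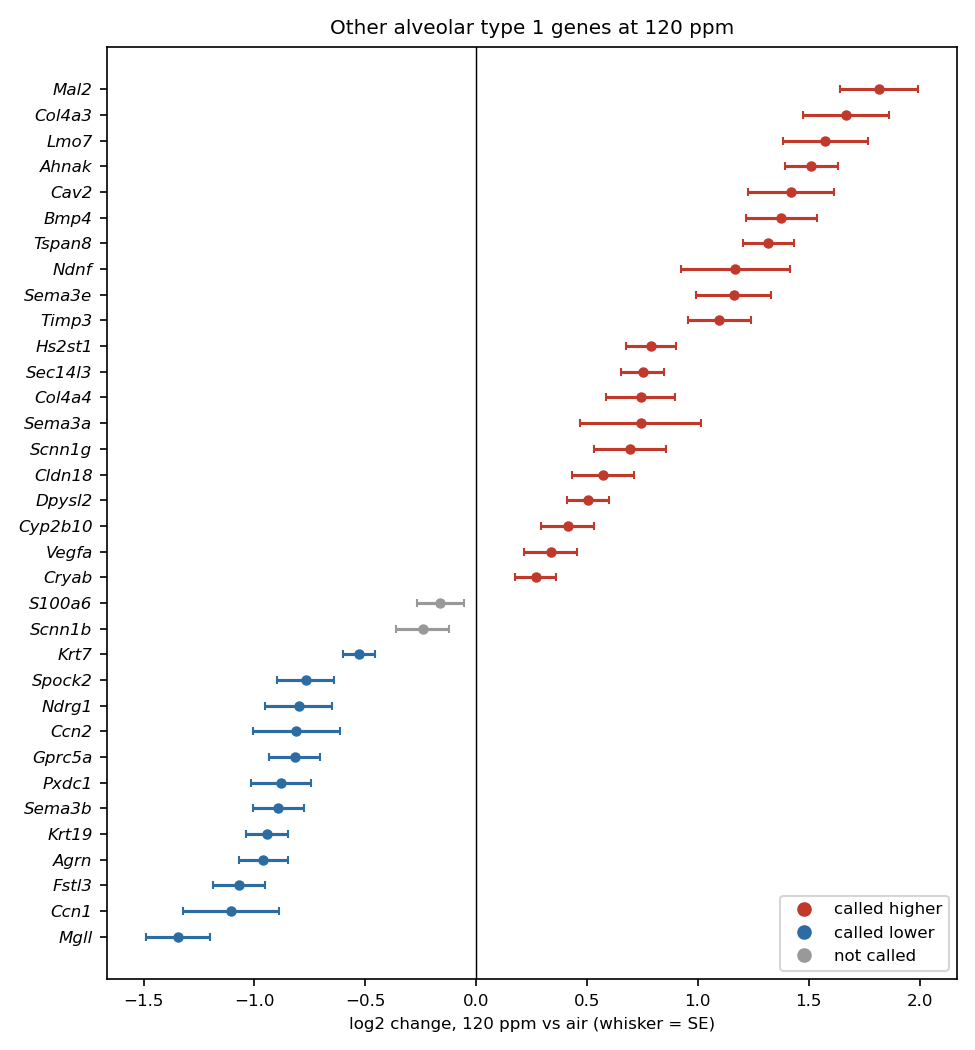
Log2 change at 120 ppm against air (horizontal axis) of 34 other genes known from alveolar type 1 cells, with standard errors as whiskers and genes ordered by change. Of these, 20 rose, 12 fell and 2 were not called, and the changes reach 1.82 for Mal2 at the upper end.

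Among 12 regulators of the alveolar epithelium, 8 rose and 2 fell at 120 ppm, and 8 rose and 3 fell at 5 ppm, beside 68.9% and 77.0% of all genes called. Wwtr1, which encodes the transcriptional coactivator TAZ, rose by 1.73 (log2 change at 120 ppm, SE 0.141), and the related Yap1 rose by 0.76. Tead1, a DNA-binding partner of both, rose by 1.17, and Hdac2, a histone deacetylase, rose by 1.83. The 2 that fell were Foxa2 (-0.66), a forkhead factor, and Tead4 (-0.55), a relative of Tead1, both named after their values were seen. Nkx2-1, the homeodomain factor of lung epithelium, changed by -0.28 at 120 ppm (adjusted p = 0.194) and fell by 0.55 at 5 ppm (adjusted p = 0.0118). Its mean log2 value was low, 5.29 in air and 4.75 at 5 ppm.

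The genes that work beside individual members are set against the same background at 120 ppm, where 29.8% of all genes were higher and 39.1% lower. Of 9 measured genes for caveolae, 4 rose and 4 fell at 120 ppm: Cav1 and its partner Cav2 (log2 change 1.42) rose, whereas Cavin1, which encodes the cavin that caveolae need to form, fell by 1.65, and Ehd2, an ATPase of the caveolar neck, fell by 0.76. Of 8 measured genes for ligands of the Ager receptor, 2 rose and 0 fell at 120 ppm, namely Hmgb1 (1.24), a chromatin protein that acts as an alarm signal outside the cell, and App (0.64), the amyloid precursor. Of 15 genes for water and ion transport, members included, 8 rose and 6 fell at 120 ppm. Aqp1, the water channel of capillary endothelium, fell by 0.52 and Clic3, a relative of Clic5, fell by 0.83, whereas Slc12a2, a sodium, potassium and chloride cotransporter, rose by 1.64. Of 9 genes of the insulin-like growth factor axis, 3 rose and 5 fell at 120 ppm. Igfbp4 and Igfbp6, further binding proteins, fell by 0.96 and 0.93 along with Igfbp2, and the receptor gene Igf1r rose by 1.35.

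Of 8 measured genes that mark the transitional state, 1 rose and 6 fell at 120 ppm, beside 29.8% of all genes higher and 39.1% lower. Krt8, Lgals3 (galectin 3), Cldn4 (a tight junction protein) and Cdkn1a (a cell cycle inhibitor) fell by 0.82, 0.66, 1.13 and 1.60, and Nupr1, a stress-response gene, rose by 0.99. Their summed linear intensity was 6710 to 7440 at 120 ppm and 9720 to 11400 in air. Such a sum is weighted towards the brightest genes of a list, here and below. The part of other lung cells in the values of these 8 genes was not tested. Of 10 measured genes of alveolar type 2 cells, 3 rose and 2 fell at 120 ppm, and their summed intensity was 54100 to 58000 at 120 ppm and 47000 to 57200 in air. Sftpc, a surfactant protein and the defining marker of that cell, changed by -0.00068 ± 0.0476 at 120 ppm (log2 change ± SE). Its mean in air was 13.77, above the 13.59 of Ager, and whether so bright a signal could still show a change was not tested. Lpcat1, an enzyme of surfactant lipid synthesis, and Napsa, a protease that processes surfactant protein, fell by 0.89 and 0.76. Cxcl15, a lung chemokine, and Lyz2, a lysozyme also made by macrophages, rose by 0.64 and 0.33.

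Markers of other cells were read against the same shares of all genes at 120 ppm (68.9% called). Of 12 endothelial genes, 5 rose and 6 fell at 120 ppm, and their summed linear intensity was 12200 to 16300 at 120 ppm and 17400 to 21000 in air. Pecam1, an adhesion protein of all endothelium, rose by 1.16, Plvap, a protein of endothelial caveolae and fenestrae, fell by 1.15, and Cdh5, the endothelial cadherin, changed by 0.04 (adjusted p = 0.733). The mean log2 value in air was 11.92 for Plvap and 9.12 for Pecam1, so the endothelial sum follows Plvap more. Of 5 lymphatic genes, 3 rose and 1 fell, with sums of 1110 to 2550 at 120 ppm and 277 to 2070 in air. The hyaluronan receptor Lyve1 rose, with mean log2 values of 10.63 at 120 ppm and 8.53 in air. Prox1, the defining factor of lymphatic endothelium, changed by -0.25 (adjusted p = 0.106). Prox1 was dim, with means of 3.14 at 120 ppm and 3.40 in air, below the array medians of 4.35 to 4.56. Of 6 mesothelial genes, 4 rose and 1 fell, with sums of 1230 to 1690 at 120 ppm and 1120 to 1830 in air. Msln, which encodes mesothelin, fell by 0.57, and Wt1, a factor of mesothelial cells, rose by 0.55 from a dim mean of 4.46 in air. Of 5 heart muscle genes 0 were called at 120 ppm, with sums of 411 to 17400 at 120 ppm and 1120 to 5510 in air. Of 4 basal cell genes, 0 rose and 2 fell, with sums of 44.3 to 172 at 120 ppm and 56.8 to 385 in air. The 2 that fell, Krt14 and Trp63, were dim, with means of 3.86 and 3.68 in air, below every array median. The part of these cell types in the changes of Cav1 and Pdpn was not tested.

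The genes whose 6 log2 changes against air were closest to those of Ager, by the mean absolute difference over the 6 comparisons, were Crxos (0.0154), Syt16, Krt81, Prl8a2 and Platr30 (0.0194). They were dim on these arrays, with mean log2 values of 2.83 to 4.98.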

How the data were processed

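The authors deposited a table of log2 probe set values for 35 arrays, and the submitters' processing notes name RMA and Partek with no version or role. Per the labels, Trizol and RNeasy were used for extraction and an Affymetrix 3' kit for labelling. The table was used as deposited, with no filter on dim genes. Of its 45037 probe sets, 28898 had 1 gene symbol in the platform annotation, 551 had several and 15588 had none; 28689 matched the reference gene table by Entrez identifier with the same symbol. The brightest probe set by the mean of all arrays stood for each of 17097 genes, of which 7180 had more than 1.

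Group means were fitted for all genes together in limma 3.58.1 (lmFit and eBayes) under R 4.3.3, a procedure first tested on simulated data. Tests are two-sided, errors of changes are standard errors of this fit, and calls were made where the p adjusted by Benjamini-Hochberg over every gene of a comparison was under 0.05. Arrays have no read depth, so precision is limited by their number. The labels call the samples biological replicates.

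No 2 arrays were identical, and the highest correlation between arrays was 0.994. Whether mouse numbers pair the samples was not settled. Of 105 correlations between deviations of same-numbered mice 40 exceeded 0.1, and 0 of 21 pairs of groups had all of them above it. The mean correlation was 0.034 for same-numbered mice and -0.0083 for mice of different numbers. In 35 of 105 comparisons a mouse was closest to the mouse of its own number, and the number expected by chance was not computed. Means of same-numbered mice ran from -0.12 (10 and 120 ppm) to 0.23 (40 and 120 ppm) over the pairs of groups.

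The members and lists were chosen with earlier results of these data known. All members are named, with up to 4 genes of each other list by smallest adjusted p at 120 ppm and a fixed set of cell type markers and regulators that could be named whatever they did (among them Sftpc, Pecam1, Cdh5, Prox1, Msln, Wt1, Cldn4 and Nkx2-1), and the 5 genes nearest to Ager. Alternatives were other probe set rules, normalizations, priors and thresholds, covariates, the mouse number as a block, and leaving out each mouse.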

Additional observations from a re-analysis of the deposited data

Results flagged for a closer look

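In 63 groups of 5 mice tested with Dixon's criterion, which flags about 1 group in 20 by chance, 4 had a mouse far from the others. The Hopx log2 value of air mouse 1 was 12.23, against 12.52 to 12.62 in the other air mice. At 1 ppm, mouse 1 had a Pdpn value of 9.933, against 9.34 to 9.51 in the others. Mouse 5 at 40 ppm had an Akap5 value of 8.499, against 8.87 to 8.999 in the others of its group. At 1 ppm, mouse 3 had an Emp2 value of 12.08, against 12.36 to 12.44 in the others. Without air mouse 1, Hopx remained called at all 5 concentrations from 5 ppm up.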

How the results depend on the processing

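The replicate block, which takes the mouse number as a block, changed no call: the numbers of members called stayed at 0, 8, 8, 7, 8 and 8 for 1, 5, 10, 20, 40 and 120 ppm against air, and a further 3 were called for 5 against 10 to 40 ppm. Fitting all probe sets in place of 1 per gene (read at the brightest of each member), quantile normalization, dim genes left out and a trended and robust prior turned no sign and lost no member's call; the last 3 gained calls of Ager at 10 ppm or Emp2 at 20 ppm, and the prior also Ager at 40 ppm. After centring on array medians, which moved the median change of all genes at 5 ppm to -0.33 (-0.14 after quantile normalization, -0.23 as deposited), the Emp2 call at 10 ppm was lost and calls of Ager at 10 ppm, at 40 ppm and for 5 against 10 to 40 ppm were gained. With only the groups compared in the fit, the calls of Ager at 5 and 120 ppm and of Emp2 at 10 and 40 ppm were lost, and Emp2 gained one for 5 against 10 to 40 ppm. With a required change of 1.5-fold, 5 members were called at 5 ppm and 1 for 5 against 10 to 40 ppm. With probe sets of a gene averaged, Hopx turned to 0.041 for 5 against 10 to 40 ppm, and Ager at 10, 20 and 40 ppm and Emp2 at 20 ppm gained calls.

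With the array axis as a covariate, 2 members were called at 5 ppm, 5 at 10 ppm, 5 at 40 ppm, 4 at 120 ppm, 0 for 5 against 10 to 40 ppm, 5 for the trend from air to 120 ppm and 5 for any difference. Under it Akap5 turned to -0.53, -0.46, -0.38, -0.48 and -0.56 at 5, 10, 20, 40 and 120 ppm. Emp2 turned to -0.21 at 5 ppm, -0.013 at 10 ppm and -0.092 at 120 ppm. For 5 against 10 to 40 ppm, Cav1 turned to -0.22, Clic5 to -0.15 and Akap5 to -0.088. With the interquartile range as a covariate, 5 members were called at 5 ppm and 2 for the trend. Emp2 then turned to -0.056 at 5 ppm and -0.012 at 120 ppm, and Akap5 to -0.077, -0.27, -0.32 and -0.12 at 10, 20, 40 and 120 ppm. The cause was not tested for any of these, and values with either covariate against air are extrapolated. The shares of all genes called under the alternative settings of this section are not given. Its counts of members therefore cannot be set against all genes, and are not read as particular to the members.

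A trend over untransformed ppm called 0 members. A trend over 5 to 120 ppm alone, chosen after seeing the data, also called 0. With 1 mouse left out in turn, 8 members stayed called at 5 ppm and at 40 ppm in every fit, 7 to 8 at 10 and 20 ppm, 7 to 9 at 120 ppm, 2 to 3 for 5 against 10 to 40 ppm, and 8 to 9 for the trend and for any difference. Between 5 and 10 to 40 ppm, such fits gave changes of -0.26 to 0.054 for Igfbp2 and -0.052 to 0.026 for Hopx, neither of them called. The number of arrays, 5 a group, limits what could be seen at 1 ppm.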
